A study of Gallus gallus with 5 samples.

Results

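Matrix metalloproteinases and the tissue inhibitors of metalloproteinases (TIMPs) were followed in DT40 cells, a chicken B cell line known for frequent homologous recombination, in which single linker histone variants had been deleted. The members were MMP2, MMP9, MMP11, MMP16, TIMP2 and TIMP3, and the set was chosen by the signals of MMP9, higher in both deletions than in wild type, and of MMP2, higher in 1 of them, so those differences are given as a description. Probe sets whose only gene symbol is that of a member were used, which gave 8 of 38439 probe sets and 5 of 13009 named genes. In the probe table used here, no probe set has MMP11 as its single symbol, so MMP11 was not analysed here.

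The series held 1 array of cells with the label of an H1L deletion, 2 arrays of cells with the label of an H1R deletion and 2 arrays of wild-type cells (WT). All cells grew in the same RPMI medium with calf serum, chicken serum and 2-mercaptoethanol, and total RNA was taken during exponential growth. The question was which genes respond to the loss of a single H1 variant. The labels do not say whether replicates were separate cultures or clones, so errors and p-values reflect the spread from array to array alone, which could be technical. A date code in the labels sets replicate 1 of H1R and of WT on a first date, and the array labelled H1L with replicate 2 of H1R and of WT on a second.

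Metalloproteinases are zinc-dependent proteases that cut proteins of the extracellular matrix and of the cell surface. They are made as inactive proenzymes, and TIMPs block the active enzymes by binding the catalytic site. MMP2 and MMP9 are the gelatinases, known from mammals to digest denatured collagen and the collagen of basement membranes. In leukocytes MMP9 is known for its part in migration through tissue, while MMP2 is best known from fibroblasts and other mesenchymal cells. MMP16 is anchored in the membrane and can activate the proenzyme of MMP2 in mammals.

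Signals are probe set intensities on a linear scale, as the authors deposited them. The linker histone probe sets do not settle the labels. HIST1H111L read 2295.3 on the array labelled H1L, 981.8 and 2372 in H1R, and 1320 and 2034.8 in WT. HIST1H111R read 42.2 on the array labelled H1L, 28.9 and 7 in H1R, and 36.1 and 39.4 in WT. The labels do not state that these genes are the deleted ones, and a probe set outside a deleted part checks nothing, so each direction below rests on the labels. The background limit of an array was the brightest of 23 controls that match no chicken RNA, and it lay between 18 and 33.6. The actin ratio, that of the 3' over the 5' control for this gene, which grows as RNA degrades, was 2.01 on the array labelled H1L, 3.87 and 2.25 in H1R, and 2.81 and 2.02 in WT.

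The B cell identity of the cells was checked on 7 of 10 listed B cell genes that have a probe set. PAX5, EBF1, CD79B, BTK, CXCR4, IKZF3 and SYK were above the background limit on all 5 arrays. In H1R against WT, limma called 2 of these 7 in their brightest probe sets, where 1.17% of all tested probe sets were called. CD79B, a chain of the B cell receptor complex, was lower in H1R (log2 difference -1.45 ± 0.22, adjusted p = 0.02), and the chemokine receptor gene CXCR4 was higher (1.79 ± 0.31, adjusted p = 0.037). The array labelled H1L differed from WT by -0.79 ± 0.26 in CD79B and by 1.14 ± 0.37 in CXCR4. Both genes were thus called in a comparison in which MMP9 and MMP2 differed, and their part in those values was not tested. MMP9 and MMP2 are also made by other cells, so the markers of those cells are given here. Myeloid genes summed to a signal of 1579 on the array labelled H1L, 1800 and 1944 in H1R, and 1244 and 1744 in WT, with 4 or 5 of 11 above the limit on each array. SPI1 carried most of this sum, with 1361.8 on the array labelled H1L, 1462.8 and 1724.2 in H1R, and 1030.2 and 1367.2 in WT. SPI1 and CYBB, which B cells also express, were the 2 above the limit on every array. LYG2, TLR4 and the granulocyte receptor gene CSF3R lay at or below it throughout. CEBPB exceeded it on the array labelled H1L and on replicate 1 of H1R and of WT. CEBPA exceeded it on replicate 1 of WT only, LYZ on replicate 2 of WT only and CTSK on replicate 2 of H1R only. The macrophage genes CSF1R and MARCO were each above it on 4 arrays. CSF1R read 5.6 on the array labelled H1L, 30.4 and 39.1 in H1R, and 32 and 26.8 in WT. MARCO read 25.2 on the array labelled H1L, 26.9 and 40.9 in H1R, and 22.6 and 34.4 in WT, so H1R and WT overlapped for both genes. Fibroblast genes summed to 278.4 on the array labelled H1L, 277.3 and 488.6 in H1R, and 210.3 and 237.3 in WT, with 3 to 5 of 11 above the limit. Of these, COL3A1 and FN1 were above the limit on all 5 arrays and PDGFRB on 4, while DCN, LUM, POSTN, PDGFRA, THY1 and ACTA2 lay at or below it on all 5. COL1A2 was higher on every deletion array, in its brightest probe set, with 102.4 on the array labelled H1L, 98.3 and 285.1 in H1R, and 6 and 26.5 in WT. The higher fibroblast sums of the deletion arrays rested on COL1A2 alone. COL1A1 was instead lower on every deletion array, at 16.5 (H1L label), 20.5 and 20.4 (H1R), against 36.6 and 41.3 (WT). Of these COL1A1 values, those of the H1L label and of replicate 2 of H1R were at or below the limit. The part of such cells in the values of MMP9 and MMP2 was not tested.

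**Figure D1:**
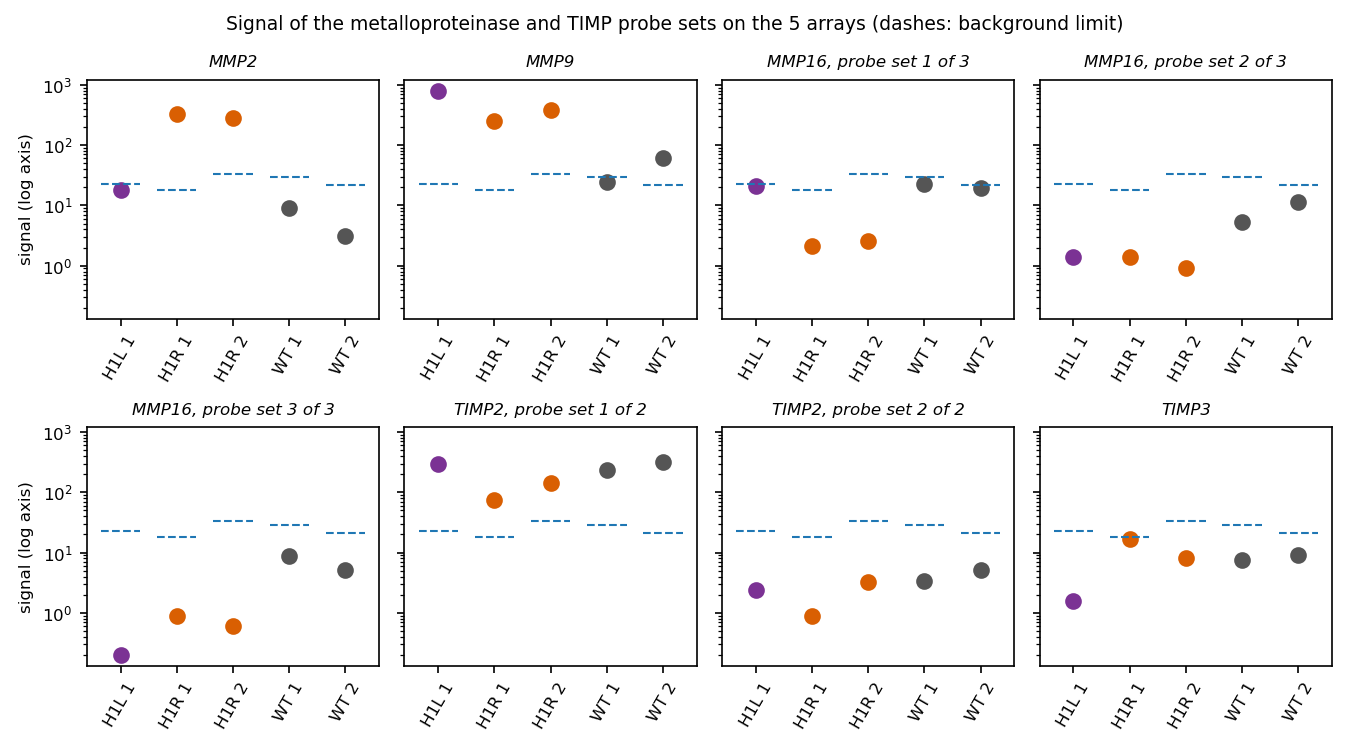
Signal of each of the 8 probe sets (log axis) on the array labelled H1L, the 2 H1R arrays and the 2 WT arrays, with the background limit of each array as a dashed line. MMP9 lies highest on the array labelled H1L, MMP2 is above the limit on both H1R arrays only, and the first TIMP2 probe set is lowest on the H1R arrays.

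MMP9, or gelatinase B, read 793.3 on the array labelled H1L, 246.2 and 389.1 in H1R, and 24.1 and 61.2 in WT. Every deletion array was above both WT arrays, and the groups did not overlap. The gene was chosen for being higher in both deletions, so this separation from WT is a description. Replicate 1 of WT lay below its background limit of 29.2 and replicate 2 above its limit of 21.4. In RNA of a whole culture, fewer cells that make a transcript and less of it in each cell cannot be told apart.

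The mean signal of MMP9 was 317.6 ± 101.0 in H1R and 42.65 ± 26.23 in WT (SD, n = 2 each). On the scale of log2(signal + 6), which understates the change of dim probe sets, the difference was 2.81 ± 0.45 for H1R against WT and 4.15 ± 0.55 for the array labelled H1L against WT (± standard error of the fit over all 5 arrays). The array labelled H1L read 1.34 ± 0.55 log2 units above H1R. Within dates, H1R stood at least 8.43-fold above WT on the first, where WT is set to its limit, and 6.36-fold on the second, and the array labelled H1L stood 13-fold above the WT array of its own date. It was 2.04-fold above the H1R array of that date.

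MMP2, or gelatinase A, read 17.9 on the array labelled H1L, 327.9 and 277.4 in H1R, and 9.1 and 3.1 in WT. The 2 H1R arrays were the only ones above the background limit, so a level of MMP2 was measured in H1R alone. Its mean signal was 302.6 ± 35.71 in H1R and 6.10 ± 4.243 in WT (SD, n = 2 each). Set against the limit, H1R was at least 12.1-fold above WT, and the array labelled H1L was at least 13.1-fold below H1R. The bound takes the mean log2 signal of H1R and, for the dim arrays, the higher of limit and signal. The fitted log2 difference was 4.71 ± 0.38 for H1R against WT and -3.69 ± 0.46 for the array labelled H1L against H1R, and it depends on the value added before the log (for H1R against WT, 5.56 with 1 added and 3.14 with 32 added). Set against the limit of the WT array of its date, H1R was at least 11.2-fold higher on the first date and at least 13-fold on the second. The array labelled H1L and the WT arrays were all at or below the limit, so no fold is given between them.

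TIMP2 inhibits a broad set of metalloproteinases and, in mammals, also takes part in the activation of the MMP2 proenzyme at the cell surface. Its brighter probe set read 295.9 on the array labelled H1L, 75.5 and 144.4 in H1R, and 236.4 and 323.2 in WT. All 5 values were above the limit, both H1R arrays were below both WT arrays, and the array labelled H1L lay between the 2 WT arrays. With 2 arrays in each group this separation is a description, and the share of all probe sets that separate in this way is not given here. With limma, the difference of H1R from WT was not called unless the date code was fitted as a block. The log2 difference was -1.35 ± 0.39 for H1R against WT, 0.10 ± 0.47 for the array labelled H1L against WT and 1.45 ± 0.47 for the array labelled H1L against H1R. The ratio of H1R to WT was 0.319 on the first date and 0.447 on the second. Its lowest value, 75.5, came from the array with the highest actin ratio, and the part of RNA quality in it was not tested. The other TIMP2 probe set read between 0.9 and 5.1 and was at or below the limit on all arrays, so it gives no second measure of TIMP2.

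MMP16 was at or below the background limit in each of its 3 probe sets on every array, and no fold is given for it. Its brightest probe set read 21.1 on the array labelled H1L, 2.1 and 2.6 in H1R, and 22.6 and 19.5 in WT. The array labelled H1L and the WT arrays came close to the limit there, while the H1R arrays did not. The other 2 MMP16 probe sets read between 0.2 and 1.4 on the 3 deletion arrays, against 5.1 to 11.2 on the WT arrays. TIMP3, an inhibitor that binds to the matrix and, in mammals, also blocks several ADAM proteases, read 1.6 on the array labelled H1L, 17.1 and 8.1 in H1R, and 7.5 and 9.2 in WT, all at or below the limit.

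Of the 8 probe sets, 4 averaged more than 13.4, the 40th percentile of all probe sets, and entered the fit. MMP2 passed this filter only through its H1R arrays, and MMP16 passed in 1 of 3 probe sets. Across 23053 probe sets fitted with limma, 1.17% were called for H1R against WT, 0.2% for the array labelled H1L against WT and 0.00434% for the array labelled H1L against H1R, at a Benjamini-Hochberg adjusted p under 0.05. Of the 4 member probe sets, MMP2 and MMP9 were called higher in H1R against WT, MMP9 was called higher on the array labelled H1L against WT, and 0 were called between the array labelled H1L and H1R. With the date code as block, the shares were 3.7%, 0.508% and 0.134%, TIMP2 was also called lower in H1R against WT, and MMP2 was called lower on the array labelled H1L against H1R. Nothing is read from these calls, since the same comparisons had served to choose the genes.

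Replicate 1 of WT had the lower MMP9 signal. Without it, MMP9 had log2 differences from the remaining WT array of 2.23 for H1R and 3.57 for the array labelled H1L. The call of MMP9 was lost in both comparisons against WT. Calls over all probe sets fell as well in that fit, so the loss is not particular to MMP9. All arrays were analysed on the deposited scale. The median over all tested probe sets was -0.146 for the array labelled H1L against H1R there, against -0.00433 after quantile normalization. The log2 difference of MMP9 in that comparison was 1.34 on the deposited scale, 1.52 after quantile normalization and 1.47 after median scaling.

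**Figure D2:**
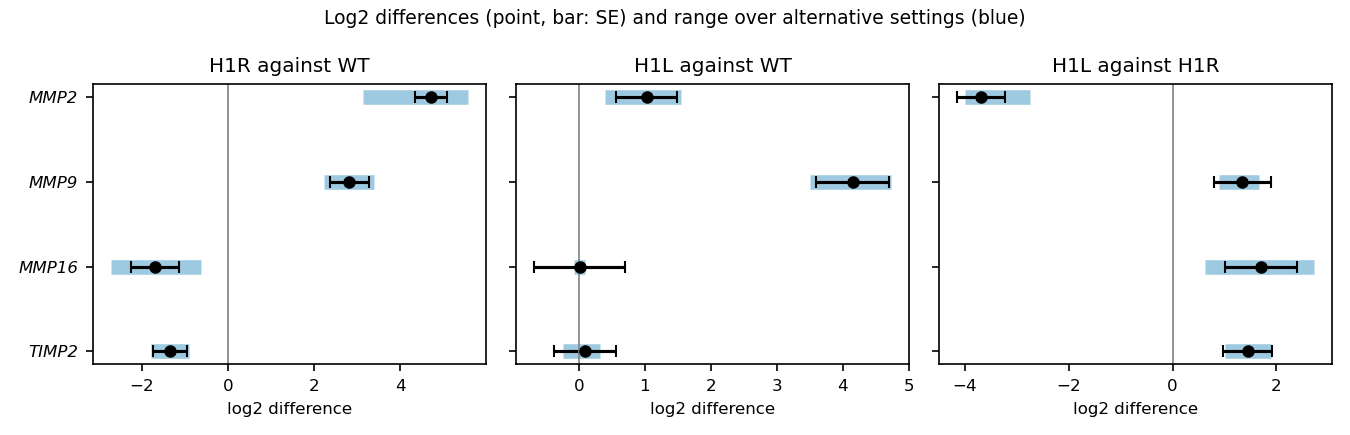
Log2 differences of the 4 member probe sets that entered the fit, for each of the 3 comparisons, as points with the standard error, and the range over all alternative settings as blue bars. MMP9 is above 0 throughout, MMP2 is above 0 for H1R against WT and below 0 for the array labelled H1L against H1R, and TIMP2 against WT straddles 0 only for the array labelled H1L.

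The probe sets whose 5 centred log2 values came nearest to those of MMP9, by root mean square difference among 17344 candidates, belonged to PPP2R2C, BTBD11 (2 probe sets), CD5 and ASB2. PPP2R2C, a regulatory subunit of protein phosphatase 2A, differed least, by 0.46 log2 units, and read 287.1 on the array labelled H1L, 227.6 and 226.8 in H1R, and 6.7 and 27.3 in WT. CD5, a receptor on T cells and some B cells, read 229.7 on the array labelled H1L, 246 and 208.3 in H1R, and 17.7 and 36.1 in WT, at a difference of 0.60. ASB2, a substrate subunit of ubiquitin ligases, followed at 0.61. Like MMP9, PPP2R2C, ASB2 and both BTBD11 probe sets were highest on the array labelled H1L, while CD5 was not. The nearer BTBD11 probe set read 236.5 there, 110.6 and 141.2 in H1R, and 4.3 and 50 in WT.

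Nearest to MMP2 were KCNJ15, CAV3, MYCN, PELI2 and LRRN3. KCNJ15, an inward rectifier potassium channel, differed from it by 0.24 log2 units and read 28.5 on the array labelled H1L, 643.2 and 646.2 in H1R, and 26.4 and 13.5 in WT. It was at least 25.8-fold higher in H1R than in WT. CAV3, a caveolin of muscle, read 7 on the array labelled H1L, 113 and 117.1 in H1R, and 2 and 1.3 in WT. MYCN, a transcription factor of the MYC family, read 17.9 on the array labelled H1L, 159.4 and 218.9 in H1R, and 1 and 1.3 in WT. These genes were picked for their likeness to the gelatinases, so their values are a description and carry no test.

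**Figure D3:**
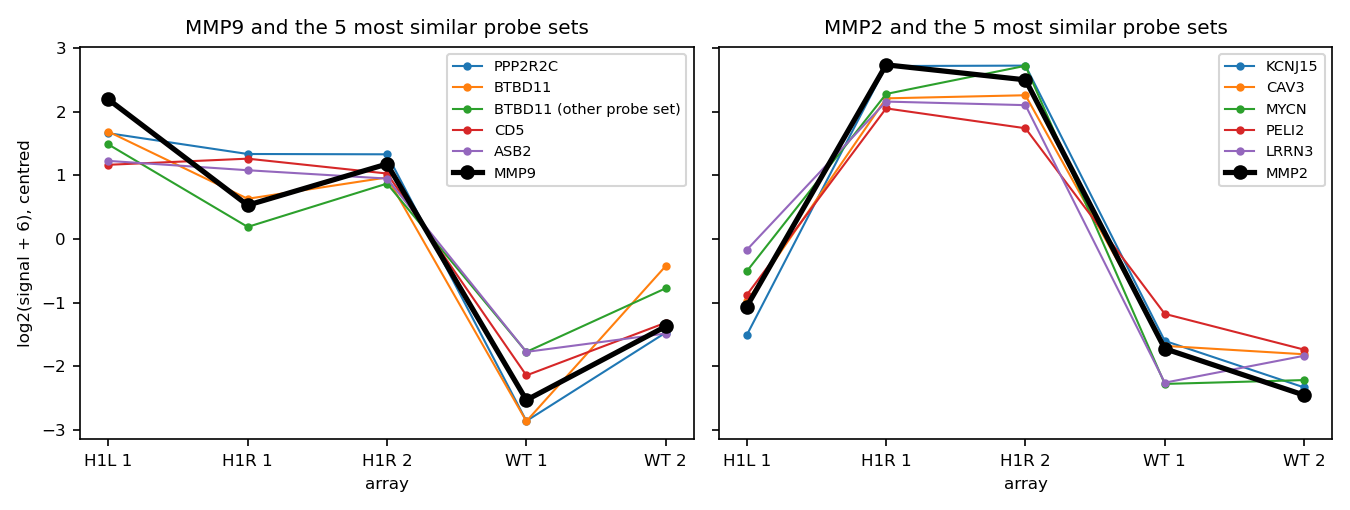
Centred log2(signal + 6) on the 5 arrays for MMP9 and MMP2 (black) and for the 5 probe sets nearest to each (colours). The MMP9 group is low on the 2 WT arrays only, and the MMP2 group is highest on the 2 H1R arrays.

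For the wider machinery of matrix turnover, 157 genes in 6 lists were read from the same fit. Of these, 129 had a probe set and 87 were tested. The lists were chosen with earlier results of these data known, so the shares below are a description and no enrichment is read from them. In H1R against WT, 2 rose (BGN and COL1A2) and 3 fell (ADAM33, ANXA2 and LAMA5), which is 5.75% of the 87, where 1.84% of all 9962 named genes were called. With the date code as block, 3 were higher and 5 lower, PCOLCE2, CD44 and LAMB1 being added, where 5.43% of all named genes were called. The median log2 difference of the 87 genes was 0.081, and that of all named genes was 0.118. For the array labelled H1L against WT limma called 0 of the 87 genes, where 0.361% of all named genes were called, and 1 with the block, where 0.843% were. For the array labelled H1L against H1R it called 0 both ways, where 0.01% of all were called, or 0.251% with the block. Differences that involve the single array labelled H1L had larger standard errors. In the probe sets given below, the 5 genes called in H1R lay on the same side of both WT arrays on that array as in H1R. At an unadjusted p under 0.05 there were 16 of the 87 genes for H1R against WT, where 14.6% of all named genes had one. For the array labelled H1L there were 12 against WT, where 10.3% of all did, and 5 against H1R, where 8.39% did.

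The other metalloproteinases and TIMPs mostly lay at or near background. Of 12 further family genes with a probe set, MMP15, a membrane-anchored enzyme, was the 1 above the background limit on all 5 arrays in its brightest probe set. Its signals were 371.8 on the array labelled H1L, 244.7 and 469.8 in H1R, and 188.7 and 381.4 in WT, so the groups overlapped. MMP28, or epilysin, read 31.8 on the array labelled H1L, 23.2 and 38.5 in H1R, and 6.5 and 13.1 in WT, above the limit on the 3 deletion arrays only. Set against the limit, H1R was at least 1.2-fold above WT over both dates. On the first date its 23.2 was below the limit of the WT array, 29.2, so no bound is given there. On the second date it was at least 1.8-fold higher. The fitted log2 difference of 1.22 ± 0.47 did not pass (limma adjusted p = 0.42). This MMP28 probe set passed the filter only through the deletion arrays, and the other was at or below the limit on all arrays. In their brightest probe sets, MMP1, MMP10, MMP13, MMP17, MMP24 and MMP27 were at or below the limit on every array, and MMP3, MMP7, MMP23A and TIMP4 exceeded it on 1 array each. A dimmer MMP24 probe set exceeded it on replicate 2 of WT, at 22.4. With limma 0 of the 5 tested genes of this list passed in any comparison, with or without the date code as block. MMP28 for H1R against WT was the 1 gene among them at an unadjusted p under 0.05, where 14.6% of all named genes had one.

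Among 26 tested collagens and other matrix substrates, BGN and COL1A2 rose and LAMA5 fell in H1R. BGN, the small matrix proteoglycan biglycan, read 39.1 on the array labelled H1L, 155.1 and 168.5 in H1R, and 6.2 and 1.6 in WT, at least 6.47-fold higher in H1R than in WT (fitted log2 difference 4.12 ± 0.38, limma adjusted p = 0.0024). Of its 4 probe sets, 2 were called, and the other 2 were at or below the limit on all arrays. The BGN probe set given here passed the filter only through the deletion arrays. COL1A2, a chain of type I collagen, was called in 1 of 8 probe sets, which read 58.4 on the array labelled H1L, 88.1 and 137.3 in H1R, and 16.8 and 10.2 in WT (at least 4.40-fold higher in H1R, limma adjusted p = 0.018). Its brightest probe set did not pass, at 3.14 ± 0.60 (limma adjusted p = 0.06). COL1A1, the partner chain of COL1A2 in that collagen, read 16.5 on the array labelled H1L, 20.5 and 20.4 in H1R, and 36.6 and 41.3 in WT, and did not pass (limma adjusted p = 0.57). LAMA5, a laminin chain of basement membranes, read 8.8 on the array labelled H1L, 6.5 and 16.9 in H1R, and 123.2 and 229.8 in WT. It was at least 6.84-fold lower in H1R than in WT (limma adjusted p = 0.013), and the array labelled H1L missed the threshold against WT (at least 7.32-fold lower, fitted log2 difference -3.56 ± 0.56, limma adjusted p = 0.082). That difference was called with the date code as block, after quantile normalization and without either replicate of H1R. LAMC1, a laminin chain with much brighter signals, had a log2 difference of -0.36 ± 0.55 for H1R against WT (limma adjusted p = 0.91). COL18A1, the collagen that carries endostatin, had one of 0.02 ± 0.32 (limma adjusted p = 0.99).

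Of 20 tested ADAM and ADAMTS genes, which encode the related adamalysin proteases, ADAM33 fell in H1R. Its signals were 35.7 on the array labelled H1L, 28.3 and 11.3 in H1R, and 141.1 and 260.8 in WT, with a log2 difference of -3.02 ± 0.45 for H1R against WT (limma adjusted p = 0.02). The sheddases ADAM10 and ADAM17, which release the outer parts of membrane proteins, were above the limit on every array. ADAM10 had log2 differences of -0.29 ± 0.22 for H1R and -0.92 ± 0.27 for the array labelled H1L against WT. For ADAM17 they were 0.11 ± 0.30 for H1R and 0.08 ± 0.36 for the array labelled H1L. None of these 4 differences passed (limma adjusted p from 0.48 to 0.99). ADAM9 had a log2 difference of 1.13 ± 0.32 for H1R against WT (limma adjusted p = 0.22), and ADAMTS6 one of 0.13 ± 0.30 (limma adjusted p = 0.95).

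The plasminogen system is the other main source of protease activity at the cell surface, and plasmin can activate metalloproteinase proenzymes. Of its 6 tested genes, ANXA2, which with S100A10 binds plasminogen and its activator at the membrane, fell in H1R. Its signals were 99.2 on the array labelled H1L, 90.9 and 37.2 in H1R, and 349.7 and 453.5 in WT (log2 difference of H1R against WT -2.64 ± 0.43, limma adjusted p = 0.03). A second ANXA2 probe set was also called (-2.16 ± 0.38, limma adjusted p = 0.041), and the third was not (-0.51 ± 0.41). S100A10 had a log2 difference of -0.38 ± 0.27 (limma adjusted p = 0.74). SERPINE2, an inhibitor of plasminogen activators, had one of -0.84 ± 0.42 (limma adjusted p = 0.57), and PLAT, the tissue-type activator, one of 0.29 ± 0.38 (limma adjusted p = 0.89).

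Of 15 tested regulators and surface partners of metalloproteinases, limma called 0 in H1R against WT without the block. Among them 4 had an unadjusted p under 0.05, where 14.6% of all named genes had one. PCOLCE2, an enhancer of procollagen processing, read 525.1 on the array labelled H1L, 528.9 and 1040 in H1R, and 73.3 and 261.6 in WT, and its log2 difference of 2.36 ± 0.57 for H1R against WT missed the threshold (limma adjusted p = 0.14) except with the block (limma adjusted p = 8e-04) and without replicate 2 of WT. CD44, a hyaluronan receptor to which MMP9 can bind in mammals, read 117.7 on the array labelled H1L, 106 and 161.3 in H1R, and 546.3 and 343.3 in WT. Its log2 difference of -1.68 ± 0.37 for H1R against WT gave a limma adjusted p of 0.1, and one of 0.018 with the block. BSG, an inducer of metalloproteinases in mammals, had a log2 difference of 0.08 ± 0.30 (limma adjusted p = 0.97), ITGB1 one of 0.64 ± 0.24 (limma adjusted p = 0.4), and the proprotein convertase PCSK7 one of -0.22 ± 0.41 (limma adjusted p = 0.93).

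Transcription factors reported to act on the MMP9 gene in mammals were tested in 15 genes, and limma called 0 for either deletion against WT. At an unadjusted p under 0.05 there were 3 for H1R, where 14.6% of all named genes had one. For the array labelled H1L there were 2, where 10.3% of all did. The NF-kB subunit gene NFKB1 read 309.1 on the array labelled H1L, 701.5 and 589.8 in H1R, and 241.8 and 440.1 in WT (log2 difference of H1R against WT 0.97 ± 0.35, limma adjusted p = 0.38). REL, another subunit, had a log2 difference of 0.09 ± 0.29 (limma adjusted p = 0.97). JUN, a part of AP-1, had one of 0.18 ± 0.37 (limma adjusted p = 0.93), and SP3 one of -0.06 ± 0.30 (limma adjusted p = 0.98).

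The calls among these genes changed when 1 array was left out. Without either WT array, calls over all probe sets fell as well, so these losses are not particular to the listed genes. Without replicate 1 of WT, BGN alone kept its call in H1R. Without replicate 2 of WT, BGN kept it and PCOLCE2 was added, while COL1A2, ADAM33, ANXA2 and LAMA5 lost theirs. Without replicate 2 of H1R, ANXA2 lost its call and LAMB1 gained one.

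**Figure D4:**
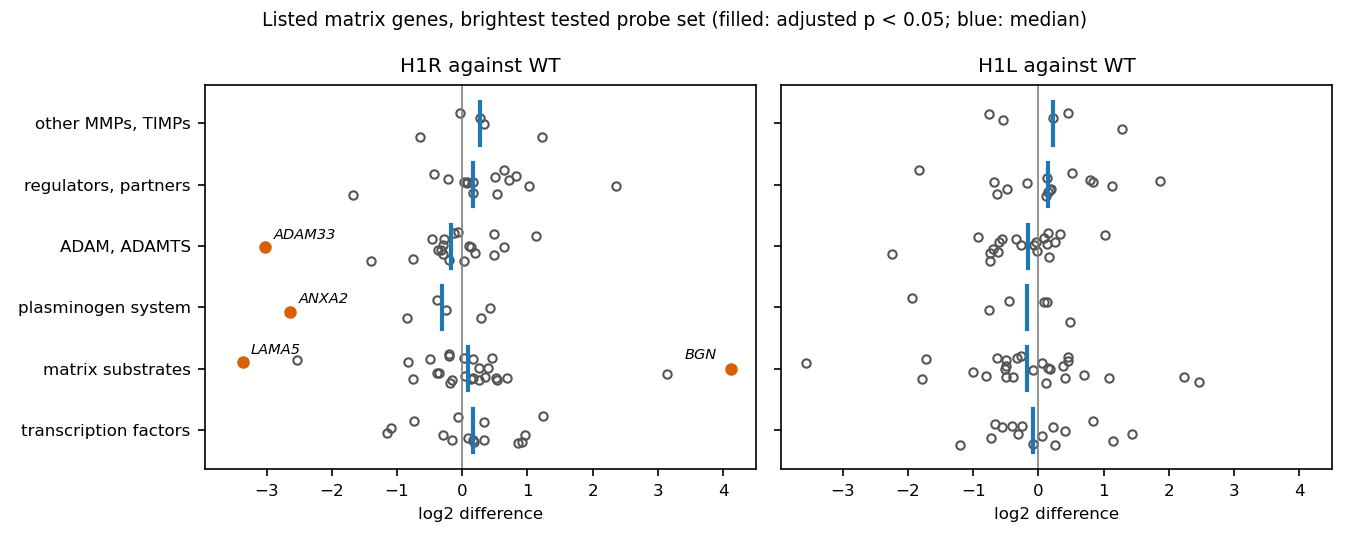
Log2 differences of the tested genes of the 6 lists, 1 point per gene at its brightest tested probe set, for H1R against WT and for the array labelled H1L against WT, with filled points for limma adjusted p under 0.05 and the list median in blue. BGN, LAMA5, ADAM33 and ANXA2 are the filled points, all for H1R against WT, and COL1A2 is open since its call came from another probe set.

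Position was examined through the 5 protein-coding genes on each side of a member in the RefSeq annotation of the GRCg7b assembly, a choice made after the values had been seen. MMP9 lies between ZNF335 and SLC12A5, a chloride transporter of neurons. Of its 10 neighbours 7 were tested, and limma called 0 of them for H1R or the array labelled H1L against WT. Of all named genes, 1.84% and 0.361% were called in these comparisons. At an unadjusted p under 0.05 there were 2 for H1R (CDH22 and, in a probe set other than its brightest, NCOA5), where 14.6% of all named genes had one, and 0 for the array labelled H1L, where 10.3% did. ZNF335 read 515.6 on the array labelled H1L, 278.9 and 382.5 in H1R, and 271 and 375.8 in WT, and SLC12A5 read 32 on the array labelled H1L, 47.2 and 35.3 in H1R, and 44 and 34.3 in WT. MMP9 was chosen for its difference from WT, so setting it beside these neighbours is a description, and a cause in the region was not tested.

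MMP2 lies between CAPNS2 and IRX6, which have no probe set, and 4 of its 10 neighbours were tested. Of these 4, FTO was at or below the limit on every array. The brightest IRX5 probe set exceeded it only on the array labelled H1L, at 24.6, and on replicate 2 of WT, at 31.5. With limma 0 passed for either deletion against WT, and 0 had an unadjusted p under 0.05. Among them, LPCAT2, an enzyme of phospholipid remodelling, read 715.5 on the array labelled H1L, 1040.6 and 1045.4 in H1R, and 567.7 and 829.3 in WT (log2 difference of H1R against WT 0.60, limma adjusted p = 0.54). For TIMP2, 9 of 10 neighbours were tested with limma. For either deletion against WT 0 passed, and 0 had an unadjusted p under 0.05. Of all named genes, 1.84% were called for H1R against WT and 0.361% for the array labelled H1L. The shares at an unadjusted p under 0.05 were 14.6% and 10.3%. A count of 0 among so few neighbours of MMP2 or TIMP2 is thus no result about the region. Among the tested TIMP2 neighbours, in their brightest probe sets, ENGASE was at or below the limit on every array. ENPP7 exceeded it on replicate 1 of H1R only. The genes on either side of TIMP2, C1QTNF1 and USP36, had log2 differences of 0.23 ± 0.44 and 0.10 ± 0.43 for H1R against WT.

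**Figure D5:**
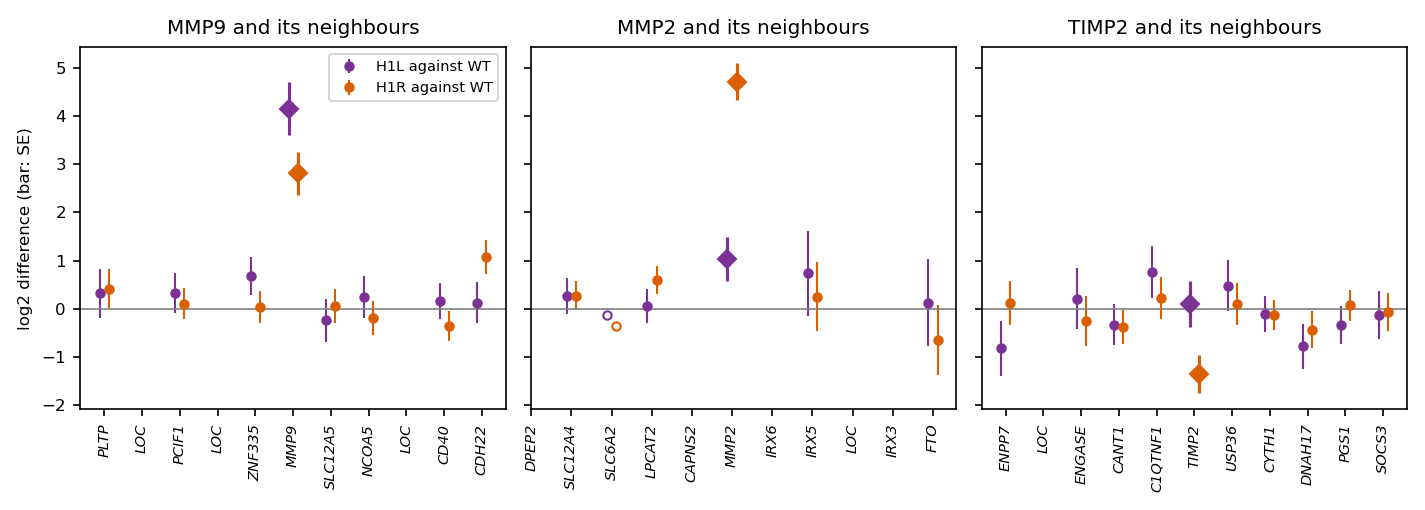
Log2 differences against WT of MMP9, MMP2 and TIMP2 (diamonds) and of the protein-coding genes on either side of each in annotation order (circles, brightest probe set, open where not tested), for H1L and H1R, with standard errors. Genes without a point have no probe set in the probe table used here, and LOC stands for provisional names. MMP9 and MMP2 were chosen for these differences, so the distance of their diamonds from the neighbours is a description.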

How the data were processed

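Total RNA was measured on 5 Affymetrix chicken arrays. The authors deposited linear signal intensity per probe set, computed with GCOS according to the submitters' processing notes. Its version and scaling target are not given in the sources used here, detection calls were not used, and the arrays do not share a common mean, so the scale between arrays is unknown. Precision is limited by how few arrays there are.

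The 96 control probe sets were left out, and 23053 of 38439 probe sets were tested on the log2 scale after adding 6, the lower quartile (25th percentile) of signals. With limma 3.58.1 (R 4.3.3), 1 term per group was fitted over the 5 arrays by lmFit and eBayes with a trend, on 2 residual and 6.04 prior degrees of freedom. The single array labelled H1L is assumed to vary like the others. Of the probe sets, 27168 had 1 gene symbol and 177 several. The test was also run on simulated arrays with independent noise and no date effect, and no result here rests on that run.

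A date code is shared by same-numbered arrays of H1R and WT. Their deviations from the mean of each group had a correlation of 0.192 over probe sets, so the numbers were taken to pair the arrays and the date code was the block. The members and gene lists were chosen with earlier results of these data known. Named were all members, listed genes past the threshold, up to 4 of the brightest per list, and the 5 probe sets nearest in pattern to MMP9 and MMP2. PCOLCE2, CD44, LAMB1, COL1A1, marker genes and neighbours were named beside these. Alternatives varied scaling, pseudocount, filter, trend, block and arrays.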

Additional observations from a re-analysis of the deposited data

How the results depend on the processing

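The direction of MMP9 and MMP2 follows from how the genes were chosen and is no sign of stability. TIMP2 on the array labelled H1L against WT, at 0.10, was -0.24 with the replicate block and -0.12 without replicate 1 of WT. The call of MMP9 was also lost without a filter and with eBayes without a trend in both comparisons against WT, and for the array labelled H1L with a pseudocount of 1. For H1R against WT, the 269 called probe sets became 103 without a filter, 145 without a trend and 854 with the replicate block, and 81 to 328 with 1 array left out. The 5 listed genes became 1 without a filter, 1 without a trend and 8 with the block, and 1 to 5 with 1 array left out. For the array labelled H1L against WT, the 46 probe sets became 27 with a pseudocount of 1, 4 without a filter, 0 without a trend (1568 at an unadjusted p under 0.05) and 117 with the block, and 2 to 126 with 1 array left out. Of the listed genes, 0 became 1, LAMA5, after quantile normalization and with the block, and 0 to 1 with 1 array left out. For the array labelled H1L against H1R, the 1 probe set became 2 after quantile normalization, 2 with a pseudocount of 32, 0 without a trend (1338 at an unadjusted p under 0.05) and 31 with the block, and 0 to 32 with 1 array left out. The causes were not tested. Leaving out the array labelled H1L was added after seeing the data. MMP16, TIMP3 and the dim TIMP2 probe set are limited by signal over background.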

Other observations

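MMP16 and TIMP3, whose signals were at or below the background limit, also had 8 and 4 tested genes among their 10 neighbours in annotation order. With limma 0 of them passed for H1R or the array labelled H1L against WT, and 0 had an unadjusted p under 0.05. Of all named genes, 1.84% and 0.361% passed, and 14.6% and 10.3% had such an unadjusted p. A count of 0 among so few genes is thus no result about these regions. RMDN1, near MMP16, read 1453.6 on the array labelled H1L, 1370.8 and 1592.6 in H1R, and 1064.4 and 1545.4 in WT. FBXO7, next to TIMP3, read 854 on the array labelled H1L, 912.4 and 1089.1 in H1R, and 619.6 and 892.2 in WT.

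Markers of other cell types were read on the same arrays. T cell genes summed to a signal of 2218 on the array labelled H1L, 1550 and 977.9 in H1R, and 2518 and 4244 in WT, and CD3D carried most of it. CD3D was lower on every deletion array than on both WT arrays, while CD5, whose signals are given above, was higher. CD4, LCK and ZAP70 were at or below the limit on every array. CD3E exceeded it on replicate 2 of WT only, at 118.7, and CD28 on replicate 1 of H1R only, at 24. CD8A exceeded it on all arrays but replicate 2 of H1R. Of 6 endothelial genes, KDR, CDH5 and TIE1 were at or below the limit on every array, while PECAM1, TEK and VWF exceeded it on some arrays. Of 3 erythroid genes with a probe set, SLC4A1 and EPB42 were at or below it on every array, and HBA1 exceeded it on some.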
